A study of Homo sapiens with 3 samples.

Results

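MGP, the gene for matrix Gla protein, was followed cell by cell across the drug-sensitive and drug-resistant lineages, the cell cycle phases and the clusters of CAMA-1 breast cancer spheroids. It is 1 of 22499 gene rows with a symbol that were counted in the 3 libraries. It was selected on measured values, because it separated the lineages and was higher in cocultured sensitive cells, so its levels in these contrasts are given as a description with no test. Single-cell RNA was collected from spheroids started from 2000 cells and kept in 1 µM ribociclib, a CDK4/6 inhibitor, until day 11. CAMA-1 is an established estrogen receptor-positive line, and the resistant lineage was derived from it by months of growth in ribociclib. Sensitive cells carried a lentiviral mVenus label and resistant cells a lentiviral mCherry label, both read from the RNA. The sensitive monoculture started at 100% sensitive cells, the coculture at 50% and the resistant monoculture at 0%, and all 3 received the same drug. Each condition was 1 library of cells from dissociated spheroids, so the conditions have no replicates and the intervals below cover counting error only.

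Matrix Gla protein is a small secreted protein whose glutamate residues are carboxylated with vitamin K as the cofactor. It is best known as an inhibitor of calcification in vessel walls and cartilage, and as a secreted binder of bone morphogenetic proteins (BMPs). In breast tissue it is made by luminal epithelial cells as well as by stromal cells, and its RNA is among the abundant ones in many estrogen receptor-positive tumors.

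The authors annotated 19237 cells in 4 populations, with 3329 sensitive and 7557 resistant cells from the monocultures and 2059 sensitive and 6292 resistant cells from the coculture. A coculture cell was assigned by having at least 1 UMI (unique molecular identifier, one captured RNA molecule) of its own label and none of the other. Annotated monoculture cells could have no label UMI. The median annotated cell had 27622 UMIs in the sensitive monoculture library, 31522 in the coculture and 35443 in the resistant monoculture. The 7 luminal epithelial markers, among them KRT8, KRT18, KRT19, GATA3 and ESR1, were present in every population and summed to between 7659 and 9605 CPM (UMIs of a gene per 1e6 UMIs). Among cell types known to make MGP, the fibroblast markers LUM and DCN had 0 and 1 UMI over all annotated cells. COL1A2 and PDGFRB had at most 0.0480 CPM in any population, and COL1A1 had 2.40 to 3.61 CPM in each. The 2 endothelial markers found summed to at most 0.301 CPM. The 3 chondrocyte markers summed to at most 0.550 CPM, and the 3 leukocyte markers to at most 1.07 CPM. Of the latter, PTPRC stood at no more than 0.0282 CPM, while CD68 had 0.364 and 0.592 CPM in sensitive cells alone and in coculture and 1.06 and 0.857 CPM in resistant cells, the same order as MGP, and its part in the MGP level was not tested. Of the 6 fibroblast markers, COL3A1 reached 35.2 CPM in sensitive and 0.181 CPM in resistant monoculture cells, the reverse of the order of MGP. In the coculture it had 18.7 CPM in sensitive and 2.12 CPM in resistant cells. Whether the levels of COL1A1 and COL3A1 bear on that of MGP was not tested. Between any 2 libraries, 7 to 17 annotated cells shared a barcode sequence.

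MGP (ENSG00000111341) lies on the minus strand of chromosome 12 at chr12:15033798-15038791 (GRCh37, GENCODE 44 lifted to that build) and has 4 annotated transcripts, which the counts per gene do not separate. C12orf60 overlaps it on the other strand and had 0.696 CPM in sensitive monoculture and 1.26 CPM in resistant monoculture cells. The next genes on either side were not high where MGP was high. ART4 had at most 0.105 CPM in any population, and ERP27 had 6.37 CPM in sensitive monoculture and 1.28 CPM in resistant monoculture cells.

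Summed over cells, MGP stood at 404 CPM (95% Poisson interval 399.9 to 408) in sensitive cells grown alone and at 1041 CPM (1034 to 1049) in those from the coculture. Resistant cells had 5983 CPM (5972 to 5994) when cocultured and 6497 CPM (6487 to 6507) when grown alone. In resistant monoculture cells it made up 0.650% of all UMIs. Resistant monoculture cells were 16.1-fold above sensitive monoculture cells, a log2 ratio of 4.00 (3.99 to 4.02, 1 CPM added to both). In the coculture, resistant cells were 5.75-fold above sensitive cells, a log2 ratio of 2.52. Cocultured sensitive cells were 2.58-fold above monocultured ones, a log2 ratio of 1.36 (1.35 to 1.38). That ratio was 0.83 among cells with at least 2 UMIs of their label and 0.59 among those with at least 3. Cocultured resistant cells were slightly below monocultured ones, with a log2 ratio of -0.12 (-0.12 to -0.12). With no replicate libraries, the spread between libraries is not known, and the small step between the resistant populations cannot be set against it.

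Single cells showed that these sums hid different spreads. In sensitive monoculture, 1401 of 3329 cells had no MGP UMI. The median cell there had 35.4 CPM, which was 1 UMI, the 90th percentile was 951 CPM and the highest cell reached 20427 CPM. The 10% of cells with most UMIs held 77.3% of all MGP UMIs, so the summed level of this population came from a minority of cells. In sensitive coculture, only 2 of 2059 cells had no MGP UMI, the median was 379 CPM (13 UMIs), the 10th percentile was 166 CPM and the 90th was 2514 CPM. The same share of cells held 55.8% of the MGP UMIs there. The median cell thus differed 10.7-fold between the sensitive populations, against 2.58-fold for the summed level.

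Resistant cells were high as a population but not uniform. The median was 5342 CPM (176 UMIs) in monoculture and 4747 CPM (142 UMIs) in coculture. The 10th and 90th percentiles were 701 and 13503 CPM in monoculture, and 506 and 13154 CPM in coculture. These ranges overlapped almost wholly, and 85.8% and 82.0% of the cells lay above 1000 CPM, against 9.76% in sensitive monoculture and 21.7% in sensitive coculture. A single resistant monoculture cell reached 47493 CPM, and 2 had no MGP UMI. The variance of the UMI counts was 118 times their mean in monocultured and 129 times in cocultured sensitive cells, and 205 and 180 times in the resistant cells of those conditions. Counting error alone at one common level and depth would give a value near 1.

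**Figure D1:**
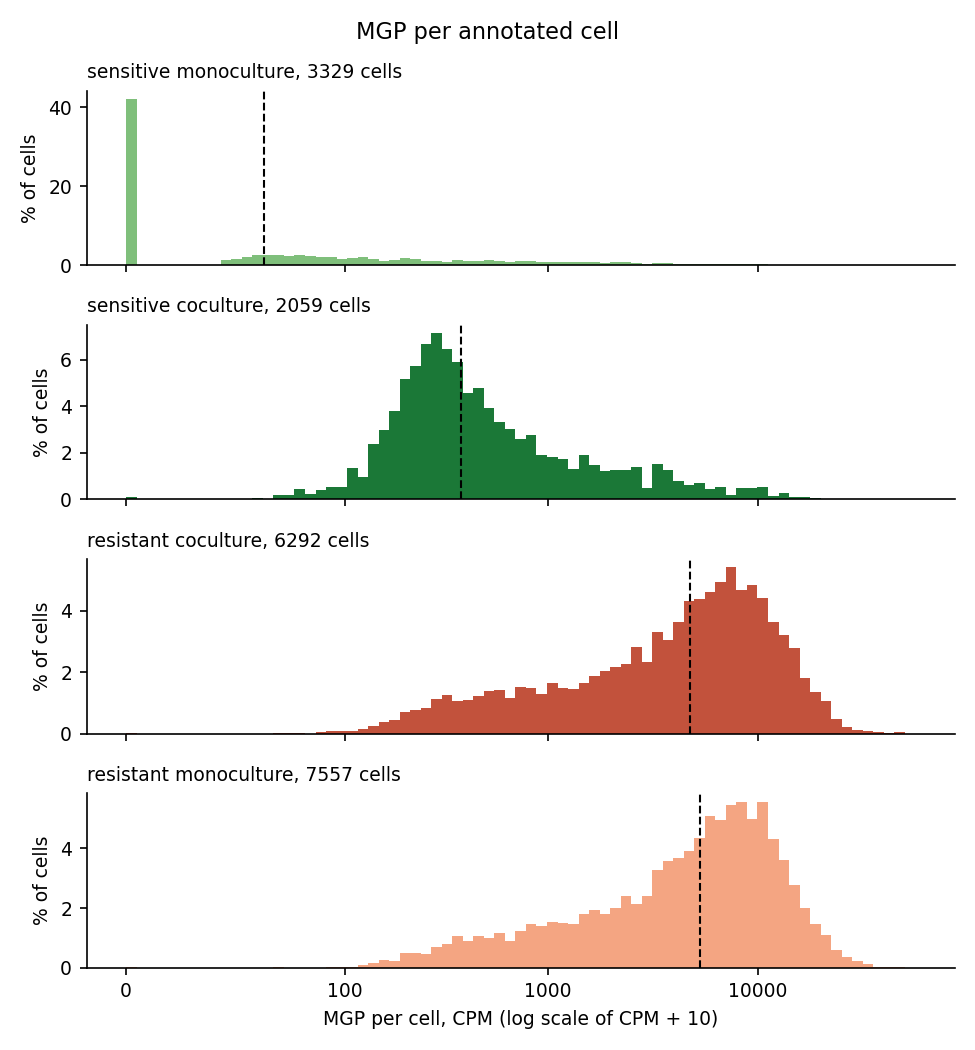
Share of annotated cells (y axis, percent) by MGP level per cell (x axis, CPM on a log scale of CPM + 10) in the 4 populations, with the median as a dashed line. Sensitive monoculture cells pile up at 0, sensitive coculture cells form a peak around their median of 379 CPM with hardly any cell at 0, and both resistant populations are broad with medians of 4747 and 5342 CPM.

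Because deeper cells show more UMIs, every cell was thinned to 5000 UMIs before shares of cells with at least 1 MGP UMI were compared. No annotated cell had fewer UMIs than this. After thinning, 32.9% (exact binomial interval 31.3 to 34.5) of sensitive monoculture cells and 83.0% (81.3 to 84.6) of sensitive coculture cells had an MGP UMI. Unthinned, these shares were 57.9% and 99.9%, at median depths of 27622 and 34056 UMIs. Resistant cells had shares of 97.5% in coculture and 98.4% in monoculture after thinning. No annotated population is known to lack MGP, so the share that stray RNA alone would give could not be read from one.

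The cell cycle phase made little difference to the summed level within a population. In sensitive monoculture, cells annotated G1, S and G2M had 401, 407 and 432 CPM. Their median cells differed more, with 32.1, 72.1 and 86.9 CPM. The share of cells with an MGP UMI was higher outside G1 in that population, at 55.7%, 74.4% and 77.9%, and so was the median depth, at 26713, 39101 and 36758 UMIs. In sensitive coculture the levels were 1070, 963 and 1058 CPM. Resistant cells had 6221, 5910 and 5634 CPM when cocultured and 6825, 6348 and 5998 CPM when grown alone. In summed level, both resistant populations were thus lower in S and lowest in G2M, by at most 0.19 on the log2 scale. The median cell went from 5626 to 5245 and 4898 CPM in resistant monoculture. In resistant coculture it hardly moved, with 4778, 4740 and 4751 CPM. Cocultured sensitive cells exceeded monocultured ones in each phase, with log2 ratios of 1.41 in G1, 1.24 in S and 1.29 in G2M.

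**Figure D2:**
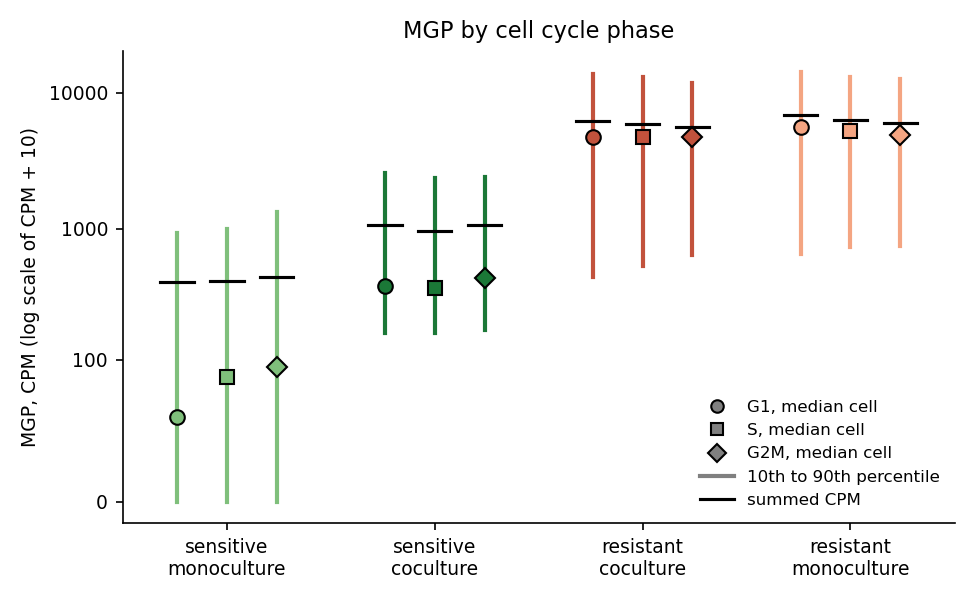
MGP (y axis, CPM on a log scale of CPM + 10) by population and annotated phase, with the median cell as a symbol, the 10th to 90th percentile of cells as a bar and the summed level as a black dash. The summed levels of the 3 phases of a population lie close together, the medians of sensitive monoculture cells run from 32.1 CPM in G1 to 86.9 CPM in G2M, and the summed level of sensitive monoculture cells (401 to 432 CPM) sits far above their median.

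The authors' 14 clusters divided by lineage. A cluster was called resistant-leaning or sensitive-leaning where it held over 2 times the share of that monoculture, which gave 8 resistant-leaning clusters (0, 1, 2, 5, 6, 10, 11 and 13), 5 sensitive-leaning clusters (3, 4, 7, 8 and 12) and cluster 9 as mixed. The clusters were built on expression in the same cells, so their MGP levels are a description. Among resistant monoculture cells in clusters with at least 20 of them, the summed level ran 6.61-fold from 1169 CPM in cluster 10 to 7731 CPM in cluster 0. Clusters 0, 1, 2, 5, 9 and 11 lay between 5730 and 7731 CPM, cluster 13 had 4553 CPM, and clusters 6 and 10 had 1423 and 1169 CPM. Clusters 6 and 10, with 576 and 148 of the 7557 cells, thus had the lowest summed levels, although 47.6% and 36.5% of their cells lay above 1000 CPM. Their median cells had 936 and 776 CPM, against 6500 CPM in cluster 0, and their median depths of 35622 and 42695 UMIs were not below the 34730 of cluster 0. In resistant coculture cells too, by the same limit, clusters 10 and 6 were the lowest, with 989 and 1041 CPM, and cluster 0 was the highest, with 7405 CPM, among clusters leaning resistant.

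Among sensitive monoculture cells the clusters of at least 20 cells differed less, from 176 CPM in cluster 9 to 450.0 CPM in cluster 4. The median cell was at 0 CPM in clusters 8 and 12, at 37.5 CPM in cluster 4 and at 80.7 CPM in cluster 7. The share of cells with an MGP UMI, unthinned, ran from 42.4% in cluster 8 to 77.6% in cluster 7, and the median depth from 21423 to 38494 UMIs in the same clusters. The sensitive cells were distributed differently in the libraries. Cluster 4 held 58.4% of them in monoculture and 4.08% in coculture, whereas cluster 3 held 8.02% and 52.8% and cluster 7 held 6.97% and 29.97%. In coculture, the cells of clusters 3 and 7 had 767 and 749.5 CPM. Each of the 6 clusters with at least 20 sensitive cells from both libraries was higher in coculture, with log2 ratios from 0.84 in cluster 7 to 2.09 in cluster 9. Of the 9 such clusters of resistant cells, 8 were lower in coculture and 1 was higher, with log2 ratios from -0.45 to 0.04. Cluster 9 held both lineages and still showed 2 levels. Its resistant cells had 7156 CPM in monoculture and 7354 CPM in coculture, whereas its sensitive cells had 176 and 752 CPM.

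**Figure D3:**
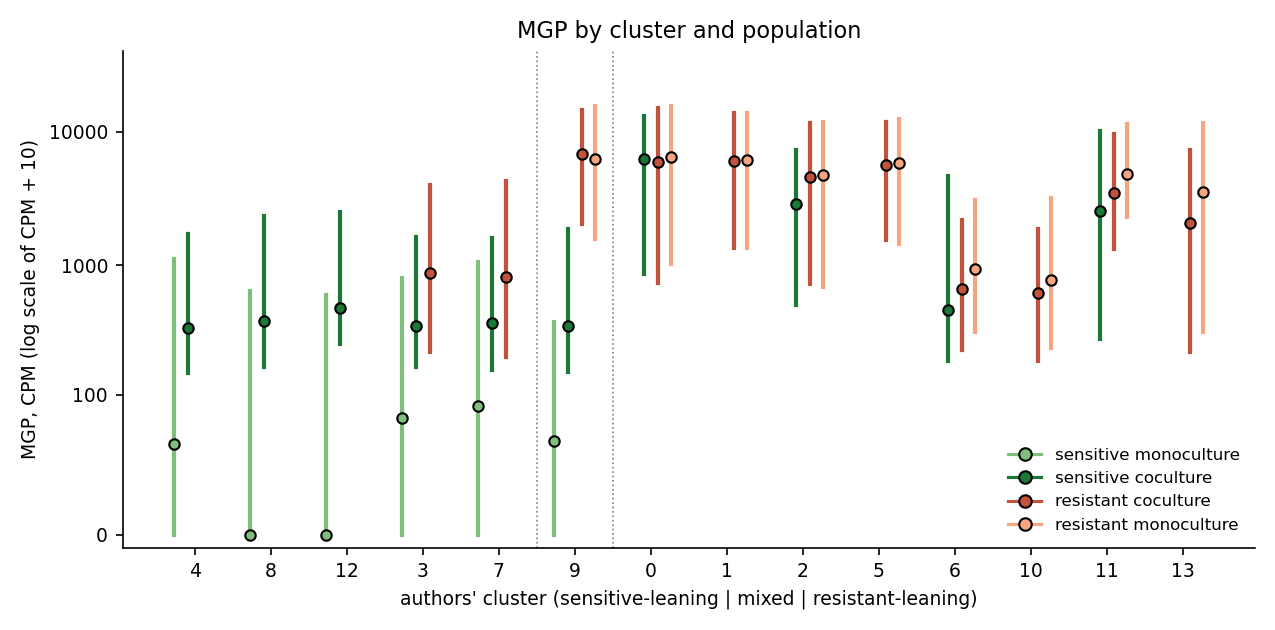
MGP (y axis, CPM on a log scale of CPM + 10) by the authors' cluster (x axis) and population, with the median cell as a dot and the 10th to 90th percentile as a bar, for groups of at least 20 cells. Clusters 6 and 10 are the low resistant clusters (1423 and 1169 CPM summed in monoculture), and in cluster 9 the lineages separate.

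Sensitive coculture cells that fell in resistant-leaning clusters carried much of the population's MGP. There were 157 of them, 7.63% of the cells with 31.2% of the MGP UMIs, and they had 4368 CPM. The 43 in cluster 0 had 6437 CPM, the 34 in cluster 2 had 3676 CPM and the 35 in cluster 11 had 3790 CPM. Cluster 11 leaned resistant by the monocultures, but it held 1.70% of sensitive and 1.41% of resistant coculture cells. The 20 sensitive coculture cells in cluster 6 were lower, with 1437 CPM and a median of 459.9 CPM. By contrast, the 1859 sensitive coculture cells of sensitive-leaning clusters had 774 CPM, with a median of 357 CPM. The log2 ratio of coculture over monoculture among cells of sensitive-leaning clusters alone was 0.93, against 1.36 for all cells. In the other direction, 146 resistant coculture cells in sensitive-leaning clusters had 1705 CPM, and 25 such resistant monoculture cells had 2073 CPM.

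The level also moved with the number of label UMIs by which a cell had been assigned. Sensitive coculture cells with 1 mVenus UMI had 1308 CPM (932 cells), those with 2 had 984 CPM (521 cells), those with 3 to 4 had 693 CPM (420 cells) and those with 5 or more had 771 CPM (186 cells). The share of them in resistant-leaning clusters was 12.8%, 4.80%, 2.62% and 1.08% in the same order. The lower part of the distribution did not follow, since the 10th percentile stayed between 159 and 172 CPM and the median between 343 and 417 CPM. Sensitive monoculture cells went the other way, from 334 CPM at no mVenus UMI to 458 CPM at 5 or more. With at least 3 label UMIs required of every cell, the sensitive populations stood at 718 CPM (606 cells) and 476 CPM (694 cells), a log2 ratio of 0.59. With at least 2 UMIs, the threshold in the study's methods, the levels were 837 and 471 CPM and the log2 ratio was 0.83. Resistant cells declined with mCherry, from 6432 to 4667 CPM in coculture and from 7266 CPM at no mCherry UMI to 5099 CPM in monoculture.

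**Figure D4:**
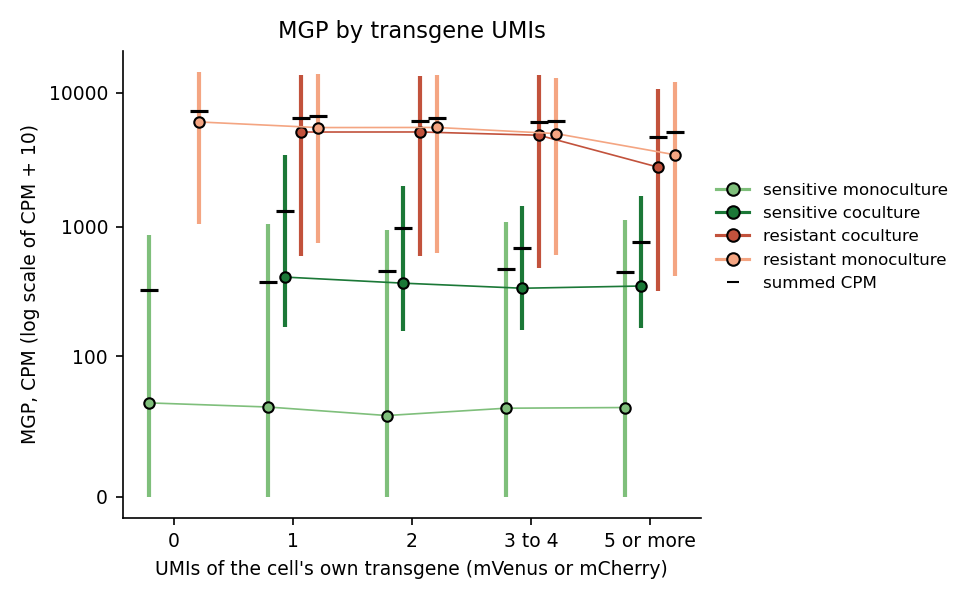
MGP (y axis, CPM on a log scale of CPM + 10) by the UMIs of the cell's own fluorescent label (x axis), with the median cell as a dot, the 10th to 90th percentile as a bar and the summed level as a black dash. In sensitive coculture cells the summed level drops from 1308 to 771 CPM while the median stays between 343 and 417 CPM.

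Markers of each lineage were then read in cells binned by their own MGP level. FABP7, a fatty acid-binding protein, marked sensitive cells, with 1398 CPM in sensitive and 0.808 CPM in resistant monoculture cells. BRINP3 marked resistant cells, with 28.7 CPM in resistant and 0.166 CPM in sensitive monoculture cells. Both were picked after their values were seen. The 98 sensitive monoculture cells at or above 3000 CPM of MGP held 46.2% of that population's MGP UMIs, and they had 1094 CPM of FABP7. They had 0 UMIs of BRINP3, which allows up to 0.999 CPM. The 2240 cells below 100 CPM of MGP had 1473 CPM of FABP7 and 0.255 CPM of BRINP3. High MGP in the sensitive monoculture therefore sat in cells with the sensitive marker and without the resistant one.

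Sensitive coculture cells differed from this, and as a population they had 289 CPM of FABP7, below the 1398 CPM of sensitive monoculture cells. FABP7 was 319 CPM in the 721 cells with 100 to 300 CPM of MGP and 129 CPM in the 175 cells at or above 3000 CPM. BRINP3 was 1.41 and 14.6 CPM in the same bins. Of the 175 high cells, 47.4% were in resistant-leaning clusters and 13.7% had a scrublet doublet score above 0.25, against 1.80% and 0.555% of the 721. These 175 cells held 50.6% of the population's MGP UMIs. High MGP in cocultured sensitive cells thus came with less FABP7 and more BRINP3, and the part of barcodes holding RNA of both lineages in this level was not tested. Around the limit of 300 CPM, 235 sensitive coculture cells lay within 10% of it, so the bins are ranges and not cell types. Low-MGP resistant cells kept the resistant marker, with 24.4 CPM of BRINP3 in the 849 resistant monoculture cells at 300 to 1000 CPM of MGP and 29.8 CPM in the 5135 at or above 3000 CPM. FABP7 was 0.234 and 0.794 CPM in these bins and 5.56 CPM in the 218 cells at 100 to 300 CPM. In resistant coculture cells FABP7 was 34.9 CPM at 100 to 300 CPM of MGP and 10.5 CPM at or above 3000 CPM. Of those cells, 9.89% and 0.602% were in sensitive-leaning clusters.

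The higher level of sensitive coculture cells was compared with an even spread, in which every monoculture cell receives the same mean number of extra MGP UMIs with Poisson error. At 5000 UMIs per cell the mean difference was 3.32 UMIs, or 664 CPM. Spread evenly, it would leave 2.42% of cells without an MGP UMI, and 17.0% were observed. The even spread would put the median at 4 UMIs and the 90th percentile at 9, and the observed values were 2 and 13. It would place 2.55% of cells above 20 UMIs, where 5.15% were observed and 1.89% of monoculture cells lay. The observed excess was therefore less even than this reference, with more cells at 0 and more cells at high values. The excess of high cells depended on the label UMIs required. With at least 2, 3.02% of cells lay above 20 UMIs, against 3.11% under the even spread and 2.66% of monoculture cells. With at least 3 it was 2.15%, against 3.14% and 3.03%. Thinned to 10000 UMIs, 6.77% of this set lay above 20 UMIs, against 7.03% under the even spread and 6.20% of monoculture cells. Thinned to 2000 UMIs, these shares were 0.495%, 0.926% and 0.865%. The order of observed and monoculture shares thus changed with depth, and these shares carry no interval. With at least 3 label UMIs, the variance over the mean at 5000 UMIs was 9.92 against 15.3 under the even spread.

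A smaller addition, set by the cells at 0 rather than by the mean, was computed after the data were seen. An even addition of 1.37 UMIs per cell, or 274 CPM, gives the observed 17.0% of cells at 0 by construction. It also gives the observed median of 2 UMIs. It amounts to 41.3% of the mean excess and to 4.58% of the level of resistant coculture cells. Its 90th percentile is 6 UMIs against the observed 13. At 5000 UMIs the size of this addition was 265 CPM with at least 2 label UMIs and 254 CPM with at least 3. In G1 cells it was 264 CPM, and in sensitive-leaning clusters 274 CPM. These sets share cells and had similar shares at 0, so the likeness of the sizes is no independent support. In all cells the addition moved with the thinning depth, to 240.2 CPM at 10000 UMIs and 331 CPM at 2000. It moved less with at least 2 label UMIs, to 251 CPM at 10000 UMIs and 286 CPM at 2000. With at least 3 label UMIs it was 244 CPM and 268 CPM at these depths. Whether one even addition was present was not tested. The mean excess varied more between the cell sets. With at least 3 label UMIs the mean excess was 239 CPM, and its even spread would leave 20.9% of cells at 0, where 19.3% were observed, with a median of 2 UMIs in both. In sensitive-leaning clusters the even spread gave 9.53% of cells at 0 against 17.1% observed.

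**Figure D5:**
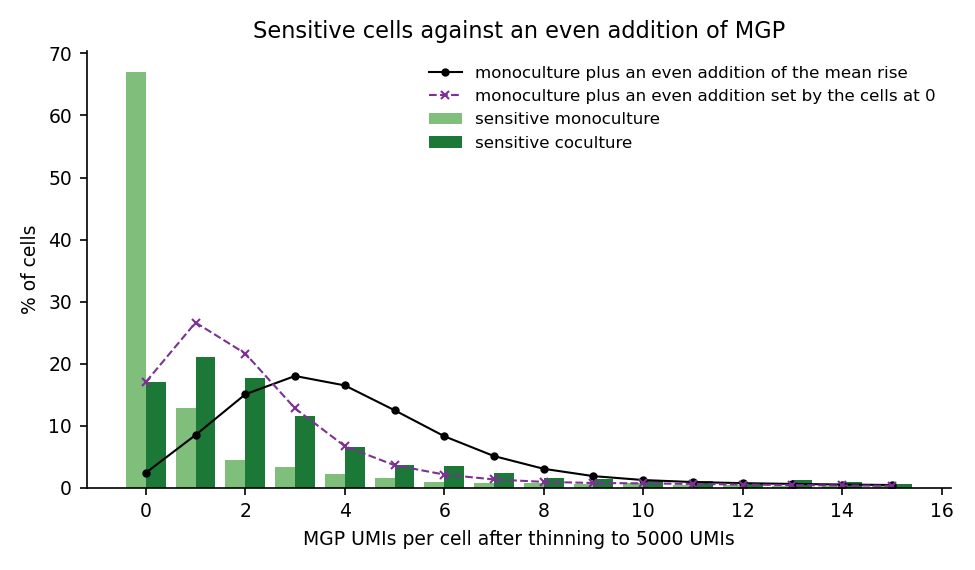
Share of sensitive cells (y axis, percent) by MGP UMIs after thinning to 5000 UMIs (x axis), with monoculture and coculture cells as bars, an even addition of the mean excess as a black line and an even addition set by the cells at 0 as a dashed line. The black line falls below the coculture bars at 0 (2.42% against 17.0%), 1 and 2 UMIs and above them at 3 to 10 UMIs.

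The low end of the sensitive coculture cells scaled with depth. Cells were split by total UMIs into 4 classes of equal size, with median depths of 22282, 30766, 37488 and 46483. Their median MGP count was 9, 11, 13 and 18 UMIs, and their 10th percentile 3, 5, 6 and 8 UMIs. In CPM the medians were 421, 372, 360 and 368, so the level per UMI stayed within a narrow range while the counts went up with depth. In sensitive monoculture the 10th percentile was 0 UMIs in every such class, and the median was 0 in the shallowest and 3 in the deepest.

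Deposited barcodes outside the annotation bear on the RNA that was present in each library. The 300 coculture barcodes with the lowest totals (904 to 1108 UMIs) had 4486 CPM of MGP, and 96.0% of them had an MGP UMI. The 300 lowest of the sensitive monoculture (495 to 719 UMIs) had 457 CPM, and those of the resistant monoculture (495 to 636 UMIs) had 6439 CPM. In the monocultures these values lay near those of the annotated cells, and in the coculture between those of the lineages and nearer the resistant one. In the coculture, 472 barcodes within the quality limits carried UMIs of both labels and had 3508 CPM with a median of 1955 CPM. A further 3523 within the limits carried neither label and had 4558 CPM. Coculture barcodes with 30% or more mitochondrial UMIs had summed levels below annotated cells of their lineage, with 966 CPM for 846 barcodes with mVenus alone and 3064 CPM for 1042 with mCherry alone. The median of those with mVenus, 451 CPM, and their 10th percentile, 193 CPM, were above those of annotated sensitive coculture cells. How much of the MGP in sensitive coculture cells came from RNA outside those cells was not tested.

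The excess was also expressed as a fill, the difference between sensitive coculture and sensitive monoculture cells as a percent of the gap to resistant coculture cells. MGP had a fill of 11.4% (11.3 to 11.6). Only 5 other genes had at least 50 CPM in resistant monoculture cells and at least 4 times the sensitive monoculture level, so the neighbors of MGP are few. Below it stood NME4, a mitochondrial nucleoside diphosphate kinase, at 6.02%. Above it stood MDK, the secreted growth factor midkine, at 17.1%, the calcium-binding protein gene S100P at 57.5%, the trefoil peptide gene TFF3 at 106% and the histone gene HIST1H4C at 117%. Against resistant coculture cells, sensitive coculture cells thus had no gap left for TFF3 and HIST1H4C. The populations differed in phase, with 2963 of 3329 sensitive monoculture cells annotated G1. In the coculture, 1138 of 2059 sensitive and 3125 of 6292 resistant cells were. The part of phase in the fill of HIST1H4C was not tested. S100P lay between, and a small part of the gap was filled for NME4, MGP and MDK. TFF3 had 377 CPM in sensitive coculture cells, still below the 479 CPM of resistant monoculture cells. The 300 lowest-total coculture barcodes had 776 CPM of TFF3. How much of these fills came from RNA outside the cells was not tested. With at least 3 label UMIs the fill of MGP was 4.83%, of NME4 0.494%, of MDK 26.1% and of TFF3 106%.

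Fills were also read for genes with hardly any UMIs in sensitive monoculture cells. Whether any of these genes changed within cocultured sensitive cells was not tested, so their fills are no reference for MGP. A rule chosen after seeing the values, at least 5 CPM in resistant monoculture cells and 20 times the sensitive level, left BRINP3, COL21A1, NAV3 and ZNF385D, whose fills were 11.4%, 13.5%, 10.7% and 9.53%. With at least 3 label UMIs they had 6.51%, 8.40%, 7.84% and 5.57%, and in the lineage-leaning clusters 6.42%, 10.5%, 6.86% and 4.63%, where MGP had 6.49%. In the reverse direction, FABP7 filled 4.73% of the gap in resistant coculture cells, with 14.4 CPM against 0.808 CPM in resistant monoculture.

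Genes whose levels ran most like that of MGP were sought over 27 combinations of population and cluster with at least 50 cells, among 6784 genes. These points share libraries and cells of one line, and much of their spread is the difference between lineages, so Pearson's r is given as a description. The highest were ENDOD1 (r = 0.96), ZNF385D (0.95), SPINK4 (0.94), RABAC1 (0.91) and FKBP2 (0.91). Over the 19 combinations of resistant cells alone they had r of 0.89, 0.94, 0.85, 0.76 and 0.79. ZNF385D, a zinc finger gene, was at 0.0104 CPM in sensitive and 18.5 CPM in resistant monoculture cells, and it was among the 4 genes just named. The lowest were SCIN (-0.96), which codes for an actin-severing protein, HOXC13 (-0.95), CAP1 (-0.94), SERINC2 (-0.94) and PITHD1 (-0.93).

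Within the 7557 resistant monoculture cells, thinned to 5000 UMIs each, the trefoil peptide genes came first among 2266 genes. TFF1, a secreted product of estrogen-responsive luminal cells, had r = 0.46 with MGP and TFF3 had r = 0.26. Next were AZGP1 (0.22), CD63 (0.22) and MT-CO1 (0.21). TFF1 was also positively related in the other populations, with r of 0.50 in resistant coculture, 0.28 in sensitive monoculture and 0.26 in sensitive coculture cells. In sensitive monoculture, TFF1 was 1376 CPM in cells below 100 CPM of MGP and 6993 CPM in those at or above 3000 CPM. In resistant monoculture cells it was 977 CPM at 100 to 300 CPM of MGP and 5648 CPM at or above 3000 CPM. TFF1 and MGP thus went together within each lineage, although TFF1 differed far less between the lineages, with 1873 and 4590 CPM in the monocultures. The lowest were the ferritin gene FTH1 (-0.21), the glycolytic enzyme gene ENO1 (-0.20), TMSB4X (-0.18), LAPTM4B (-0.18) and YBX1 (-0.17).

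Genes of the pathways in which matrix Gla protein works were compared next, counting those at least 2-fold apart either way after 1 CPM was added to both levels. The added CPM shrinks the ratio of genes of a few CPM, so counts from plain CPM ratios, an alternative added after the data were seen, follow where they differ. Between sensitive coculture and sensitive monoculture cells, 1.53% of 12326 genes were at least 2-fold higher and 1.04% at least 2-fold lower, with a median log2 ratio of -0.05. By plain ratios these shares were 3.39% and 2.78%. Between resistant and sensitive monoculture cells, 2.16% of 12968 genes were higher and 4.10% lower, or 5.97% and 8.37% by plain ratios. Between resistant coculture and resistant monoculture cells, 0.0380% were higher and 0% lower, or 0.760% and 0.0988% by plain ratios. In that comparison 0 genes of the 5 lists below were 2-fold apart, or 1 by plain ratios, the BMP and activin antagonist FST with 0.200 CPM in coculture and 0.0554 CPM in monoculture. These counts come from 1 library each and carry no test.

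Other Gla proteins stayed low. Of 14, 6 had enough UMIs to compare in sensitive cells and none differed 2-fold between coculture and monoculture (median log2 ratio 0.00). Of 7 compared between the monocultures, F7, coagulation factor VII, was higher in resistant cells, with 12.3 against 5.62 CPM. The highest was PRRG4, a membrane Gla protein, with 25.1 CPM in sensitive and 18.9 CPM in resistant monoculture cells. GAS6, a ligand of the TAM receptors, had 12.7 CPM in sensitive monoculture and 6.70 CPM in sensitive coculture cells. BGLAP, the gene for the bone protein osteocalcin, had at most 0.358 CPM.

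The vitamin K cycle was expressed throughout. All 9 of its genes were compared and none differed 2-fold in any comparison with 1 CPM added, with median log2 ratios of -0.06 in sensitive cells and -0.18 between the monocultures. GGCX, the carboxylase that modifies Gla proteins, had 16.1 and 14.3 CPM in sensitive cells alone and in coculture, and 14.1 and 14.7 CPM in resistant cells. VKORC1, which regenerates reduced vitamin K, had 99.9 and 110.7 CPM in sensitive cells, and 129 and 112 CPM in resistant cells, in the same order. The highest of the list was NQO1, a quinone reductase, with 340.0 CPM in sensitive and 222 CPM in resistant monoculture cells. By plain ratio 1 gene was past 2-fold, FAM20C, a secretory pathway kinase, with 2.24 CPM in sensitive and 0.923 CPM in resistant monoculture cells. GGCX and VKORC1 differed far less between the lineages than MGP, which had been selected because it separated them.

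BMP pathway genes were compared because matrix Gla protein binds BMP ligands. Of 17 measured in sensitive cells, 0 were at least 2-fold higher in coculture and 3 were lower, with a median log2 ratio of -0.26. The 3 were ID1, ID2 and ID3, transcriptional inhibitors that are classic targets of BMP signaling, and ID1 and ID3 had log2 ratios of -1.16 and -1.27. ID2 had 91.8 CPM in monoculture and 45.3 CPM in coculture. ID3 had 938 and 388 CPM in sensitive cells alone and in coculture, against 275 and 329 CPM in resistant cells, the reverse of the order of MGP. ID1 and ID2 did not follow that order, with 301 and 382 CPM of ID1 and 54.9 and 69.4 CPM of ID2 in resistant cells alone and in coculture, all above the 261 and 45.3 CPM of cocultured sensitive cells. Of 19 measured between the monocultures, 2 were lower in resistant cells, ID3 (-1.77) and the inhibitory SMAD6 (-1.08). By plain ratios the counts were 2 higher and 5 lower in sensitive cells, and 3 higher and 4 lower between the monocultures. The additional genes had low levels, such as SMAD6 with 1.81 and 0.522 CPM and FST with 0.499 and 1.35 CPM in sensitive cells alone and in coculture. The receptor gene BMPR1B had 0.0104 CPM in sensitive and 0.868 CPM in resistant monoculture cells. Among ligands, BMP4 had 6.98 CPM in sensitive and 5.31 CPM in resistant monoculture cells, BMP7 had 2.53 and 0.783 CPM, and BMP2 had 0 UMIs in every population, with an upper 95% limit of at most 0.0520 CPM. The receptor BMPR2 had 30.3 and 16.3 CPM.

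The mineralization and matrix list held 15 genes, of which 7 were compared in sensitive cells and 8 between the monocultures, and none differed 2-fold with 1 CPM added. By plain ratios 2 were lower in resistant monoculture cells, the pyrophosphate transporter gene ANKH with 2.23 against 5.04 CPM and the bone transcription factor gene RUNX2 with 0.0369 against 0.426 CPM. Its highest member was the phosphate transporter gene SLC20A2, with 28.2 CPM in sensitive and 22.1 CPM in resistant monoculture cells, while SPP1, IBSP and ALPL were at or below 0.113 CPM. Of 11 nuclear receptors, 9 were compared in sensitive cells, and 1 was higher in coculture. That was PGR, the progesterone receptor and an estrogen-induced gene, with 39.5 against 14.7 CPM. Of 10 compared between the monocultures, the vitamin D receptor VDR was lower in resistant cells, with 9.97 against 21.4 CPM, while PPARG was higher by plain ratio, with 0.343 against 0.0312 CPM. The estrogen receptor ESR1 had 15.7 and 20.2 CPM in sensitive cells alone and in coculture, and 14.2 and 17.3 CPM in resistant cells.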

How the data were processed

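The authors processed the reads with Cell Ranger 3.0.2 on GRCh37, per the submitters' processing notes, and deposited raw UMI counts for each gene in each barcode. Their annotation of the kept cells, also deposited, gives total counts, mitochondrial percent, phase, cluster and population. Its phases and clusters came from the authors' Seurat steps. Genes lacking a symbol held 0.523% to 0.591% of UMIs and were dropped, after which cell totals differed from the deposited counts by at most 6 UMIs. The methods state a minimum of 2 label UMIs and removal of doublets by scrublet, yet the annotation holds cells below that minimum and 634 cells with a score above 0.25 when scrublet was rerun in scanpy 1.11.5. These were kept in the main values and left out as alternatives.

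UMIs were summed per population and given as CPM, with exact Poisson intervals, and shares with exact Clopper-Pearson intervals, at 95%. Log2 ratios added 1 CPM, with intervals from the Poisson error of both sums. Thinning drew 5000 UMIs per cell without replacement. List genes needed 50 UMIs over both populations. As an alternative scaling, edgeR 4.0.16 gave TMM factors (R 4.3.3). Everything else ran in Python 3.11.15 with scipy 1.17.1 and numpy 2.4.6. Ratios, thinning and the even spread were tested on simulated data. With 1 library per condition no test was run, since cells are not replicates.

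The gene, the lists and the rules were chosen with earlier results of these data known. Named are MGP, up to 4 members per list and comparison past 2-fold, the highest members of each list (1 result is not reported here), the 5 genes most and least correlated with MGP over units and over resistant monoculture cells, and the nearest genes in fill, without the labels. Other genes were named after their values were seen.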

Additional observations from a re-analysis of the deposited data

Results flagged for a closer look

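Coculture and monoculture differed in opposite directions in the lineages. The log2 ratio of MGP in coculture over monoculture was 1.36 in sensitive cells and -0.12 in resistant cells. This drew attention because the same contrast had opposite signs in the 2 lineages. With at least 2 label UMIs the ratios were 0.83 and -0.068, and with at least 3 they were 0.59 and -0.052. The difference between these ratios was not tested, since each condition was 1 library, and the cause was not tested.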

How the results depend on the processing

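Of 78 alternatives, 51 moved a value, by more than its counting error or, for a count of list genes, by over 1.5 times, and 0 changed the sign of a ratio. The even-spread comparison depended on the cells used. With at least 3 label UMIs the share at 0 was near that under the even spread. It was 19.3% against 20.9% at 5000 UMIs, 5.12% against 4.70% at 10000 and 45.4% against 44.5% at 2000. At 5000 UMIs, 2.15% of these cells were above 20 UMIs, against 3.14% under the even spread and 3.03% of monoculture cells. The observed share was also below the monoculture share at 2000 UMIs (0.495% against 0.865%), and above it at 10000 (6.77% against 6.20%). The log2 ratios are given in the order of the coculture over monoculture ratio of sensitive cells (1.364 in the report), the lineage ratio in monoculture (4.004), the coculture over monoculture ratio of resistant cells (-0.1189) and the lineage ratio in coculture (2.521). With at least 2 label UMIs per cell they were 0.8295, 3.673, -0.06805 and 2.776. With at least 3, an alternative chosen after seeing the data, they were 0.5923, 3.578, -0.05217 and 2.934. In G1 cells they were 1.412, 4.085, -0.1336 and 2.539, and with TMM scaling 1.389, 4.117, -0.1906 and 2.538. Without scrublet scores above 0.25 both coculture over monoculture ratios and the lineage ratio in coculture were 1.269, -0.1021 and 2.627. In lineage-leaning clusters, also chosen after seeing the data, the same ratios were 0.9295, -0.09585 and 2.972. Without mitochondrial genes in the total that of sensitive cells and the lineage ratios were 1.317, 3.932 and 2.493. A pseudocount of 10 CPM gave 1.345 for sensitive cells and 3.975 for the monocultures, and the mean of per-cell CPM gave 1.412 and 4.053.

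The share of sensitive cells with an MGP UMI was 94.8% in coculture and 42.57% in monoculture at 10000 UMIs, 59.93% and 22.29% at 2000, 99.9% and 57.92% unthinned, and 80.69% and 31.12% with at least 3 label UMIs. The share of cells at 0 under an even spread was 2.423% in the report, 0.08513% at 10000 UMIs, 20.87% at 2000, 10.64% with at least 2 label UMIs, 20.88% with at least 3 and 9.531% in lineage-leaning clusters. The fill was 6.958% with at least 2 label UMIs, 4.825% with at least 3, 10.15% without high scrublet scores and 6.489% in lineage-leaning clusters. At 1.5-fold, 12 list genes in sensitive cells and 17 between the monocultures were past the limit, against 4 and 4 at 2-fold. The share of all genes past 1.5-fold was not computed, so the 12 and 17 cannot be set against it. By plain ratios, with nothing added, 8, 13 and 1 list genes were past 2-fold in sensitive cells, between the monocultures and in resistant cells, the last against 0. The cause of these shifts was not tested.

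No paired analysis was possible because each condition was 1 library with no replicate number, and for the same reason no replicate was left out. Condition and library cannot be told apart. Depth limits the low end, since 1 UMI in a median sensitive monoculture cell is already about its median level.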
